A study of Mus musculus with 24 samples.

Results

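The receptors described here bind noradrenaline, adrenaline or dopamine, and the list holds 6 genes of which 4 could be followed. Adra1b encodes an alpha-1 adrenergic receptor, Drd1 the D1 dopamine receptor, and Drd2 and Drd4 the D2 and D4 dopamine receptors. The members were chosen by gene symbol alone, as every array probe set that the platform annotation pairs with a listed symbol. This gave 6 of 45101 probe sets and 4 of 18193 named genes: 1 probe set each for Adra1b and Drd2, and a pair each for Drd4 and Drd1. Adrb1 and Adra2a, the other listed genes, have no probe set named in the table used and are not analysed here.

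Neurod1 encodes a basic helix-loop-helix transcription factor of neurons, photoreceptors and pinealocytes, and the series compared pineal glands and retinas with and without it by day and by night. All mice were C57BL/6J with floxed Neurod1 alleles. Controls carried no Cre (Crx-Cre-/-), and conditional knockouts (cKO) carried 1 copy of a Cre transgene (Crx-Cre+/-) driven by the promoter of Crx, which is active in photoreceptors and pinealocytes. The design thus aims at those cells and not at the whole retina. Mice of both sexes, 2 months old, were kept in equal periods of light and dark and were sampled at zeitgeber time 6 (ZT6, in the day) and 20 (ZT20, in the night, under dim red light). The 24 arrays each read 1 pool of 6 glands or 6 retinas. With 8 combinations of tissue, genotype and time there were 3 pools in each, so that a p-value rests on pools and not on single mice.

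The pineal gland receives noradrenaline from sympathetic nerves at night. Beta-1 receptors coupled to Gs raise cyclic AMP in pinealocytes, alpha-1 receptors coupled to Gq strengthen that rise through calcium and protein kinase C, and the cyclic AMP signal drives Aanat, the enzyme that sets the rhythm of melatonin. Alpha-2 receptors and the D2-like receptors Drd2 and Drd4 couple to Gi and lower cyclic AMP, whereas Drd1 couples to Gs and raises it. In the retina dopamine is released by a small class of amacrine cells as a signal of light and daytime. Drd4 is known from photoreceptors, where it lowers cyclic AMP, Drd2 is known as the autoreceptor of the dopaminergic cells, and Drd1 is known from horizontal, bipolar and other inner retinal cells.

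The DNA before the annotated start of 3 of the genes is shown because Adra1b and Drd4 were higher together in night pineal glands and Drd1 held the only motif found. RefSeq (GRCm38.p6) places Drd4 at chr7:141291974-141296464, Drd2 at chr9:49340360-49408177, Adra1b at chr11:43774605-43901250 and Drd1 at chr13:54051183-54055658. The promoter table matched the 4 genes with probe sets, with a pair of starts for Adra1b and for Drd1. Each line gives the 250 bases before a start, 5' to 3' on the strand of the gene, in lower case with matches to the motifs below in capitals. The first Adra1b stretch is chr11:43901238-43901487 and the second chr11:43836490-43836739 (both minus strand), the Drd4 stretch is chr7:141291768-141292017 (plus strand), and that of the second Drd1 start is chr13:54054781-54055030 (minus strand).
Adra1b, start 1: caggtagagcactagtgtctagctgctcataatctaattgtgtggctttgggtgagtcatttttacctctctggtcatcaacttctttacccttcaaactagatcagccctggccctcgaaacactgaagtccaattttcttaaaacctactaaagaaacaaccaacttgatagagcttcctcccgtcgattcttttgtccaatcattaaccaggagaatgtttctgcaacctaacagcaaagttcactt
Adra1b, start 2: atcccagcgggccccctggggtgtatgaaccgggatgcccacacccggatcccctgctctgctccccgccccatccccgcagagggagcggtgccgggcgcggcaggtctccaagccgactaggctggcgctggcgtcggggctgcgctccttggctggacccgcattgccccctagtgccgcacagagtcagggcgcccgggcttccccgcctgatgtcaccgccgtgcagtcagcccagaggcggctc
Drd4: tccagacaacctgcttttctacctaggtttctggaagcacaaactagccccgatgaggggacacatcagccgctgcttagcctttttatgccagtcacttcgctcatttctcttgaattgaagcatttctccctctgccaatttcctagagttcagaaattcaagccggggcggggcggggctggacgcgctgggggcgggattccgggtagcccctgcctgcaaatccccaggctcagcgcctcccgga
Drd1, start 2: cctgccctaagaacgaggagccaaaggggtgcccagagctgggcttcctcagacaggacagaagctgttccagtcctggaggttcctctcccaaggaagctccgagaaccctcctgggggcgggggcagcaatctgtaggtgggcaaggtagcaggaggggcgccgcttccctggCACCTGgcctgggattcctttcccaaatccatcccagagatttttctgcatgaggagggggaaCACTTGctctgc
The 300 bases from 250 before to 50 after each start were searched on both strands. The motifs were the cyclic AMP response element TGACGTCA, its part TGACG, the E-box CANNTG, its forms CACGTG and CAGATG, the Crx and Otx element TAATCC and the D-box TTATGTAA. Of 32851 promoters of that length, 1.79% held TGACGTCA, 20.8% TGACG, 72.3% CANNTG, 7.15% CACGTG, 17.2% CAGATG, 7.06% TAATCC and 0.938% TTATGTAA. CACGTG and CAGATG are also counted as CANNTG, and TGACGTCA as TGACG. The second Drd1 start had E-boxes at -75 and -12 from the start. These letters were not in the windows of Adra1b, Drd4, Drd2 or the first Drd1 start, which says nothing on factors that bind elsewhere.

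Signals are linear array intensities. Changes are differences of log2(signal + 16) ± SE from limma from 3 pools on each side. A gene is said to pass at an adjusted p below 0.05, with Benjamini-Hochberg adjustment over all genes tested. Limma draws the spread of each gene towards a trend over all genes, most strongly in the pineal fit (154 prior degrees of freedom). Pineal SEs and p-values under the filter therefore reflect that common spread more than the spread of a gene's own pools. Because 16 is added to each signal, changes of dim genes are understated. Pineal arrays had medians of 107.1 to 158.8, and retinal arrays of 107.8 to 183.1. Among the retinal groups the mean of the array medians was highest in cKO at ZT6 (153), against 119.4 in controls at that time, so that genotype results are also given after 2 other scalings. Neurod1 itself was low in the cKO ZT6 pools, at 29.1 to 83.5 against 4647 to 5268 in control pineal glands, and at 293.2 to 774.1 against 5701 to 6967 in retinas. Of the ZT20 pools labelled cKO, pool 1 read 22.5 in the pineal gland and 369.4 in the retina, but pools 2 and 3 read 1897 and 960 in the pineal gland and 3595 and 3582 in the retina. Changes of the members and of the signalling partners below that rest on these pools are given also without them, which leaves 1 cKO pool at ZT20 that is assumed to vary like the other groups. Without them Drd4 was not above the filter in the pineal gland, so that its pineal values then come from the fit with no filter or are not given. In whole tissue, fewer cells of a type and less RNA per cell cannot be told apart.

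The receptors divided the tissues. In controls all 3 dopamine receptors were far higher in the retina, and Adra1b was higher in the pineal gland. Adra1b averaged 66.9 ± 21.8 (SD, n = 3) in the control pineal gland at ZT6 and 215.9 ± 31 at ZT20, against 13.5 ± 8.98 and 25.1 ± 4.35 in the retina. Its retina minus pineal difference was -1.51 ± 0.25 at ZT6 (adjusted p = 6.03e-06) and -2.49 ± 0.25 at ZT20 (adjusted p = 7e-10). Over the 12881 genes tested, 46.8% passed as lower in the retina at ZT6 and 42.8% at ZT20. Adra1b lay below the array median on all 12 retinal arrays, so its retinal signal has little meaning beyond being low.

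Drd4 was 4.33 ± 0.25 higher in the retina at ZT6 and 4.36 ± 0.25 higher at ZT20 on the log2 scale. Drd1 was 4.02 ± 0.22 and 3.79 ± 0.22 higher, and Drd2 4.55 ± 0.26 and 5.23 ± 0.26 higher. These 6 values all passed, with adjusted p from 3.8e-15 to 1.06e-16, where 19.3% of genes passed as higher in the retina at ZT6 and 20.8% at ZT20. Drd2 read 5.4 to 36.5 on the 12 pineal arrays and 628.3 to 1344 on the 12 retinal arrays. Drd2 was below the array median on all pineal arrays, and the size of its tissue difference depends on the added 16. The other Drd4 probe set gave tissue differences of 2.71 ± 0.29 and 3.86 ± 0.29, smaller than the first at both times and more so at ZT6. The other Drd1 set gave 4.45 ± 0.23 and 4.36 ± 0.23.

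**Figure D1:**
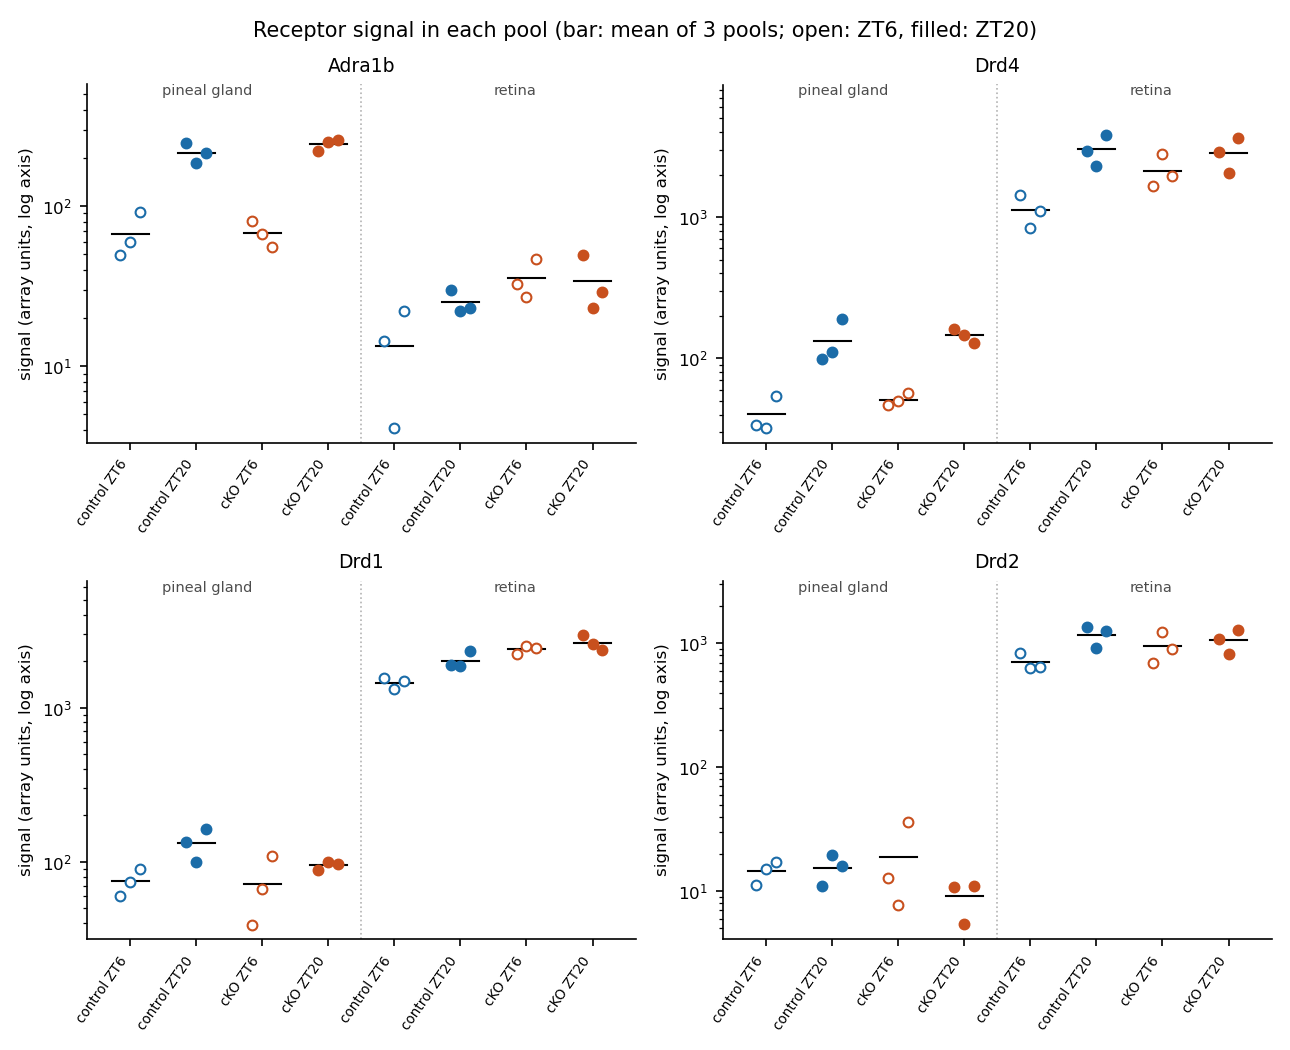
Signal of Adra1b, Drd4, Drd1 and Drd2 (log axes, array units) in every pool of the 8 groups, control in blue and cKO in orange, with open points for ZT6, filled points for ZT20 and a bar at the mean of 3 pools. Adra1b is the gene whose pineal points lie above the retinal ones, and in the pineal gland its night pools (185.2 to 259.1) lie apart from its day pools (49.5 to 91.4).

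Adra1b rose at night in the pineal gland of both genotypes. The control pools read 49.5, 59.8 and 91.4 at ZT6 and 247.2, 185.2 and 215.2 at ZT20. The cKO pools read 80.9, 66.6 and 55.3 at ZT6 and 222, 250.1 and 259.1 at ZT20. All 6 night pools lay above all 6 day pools. Ordered by mean, cKO ZT20 (243.7 ± 19.4) and control ZT20 (215.9 ± 31) came first, then cKO ZT6 (67.6 ± 12.8) and control ZT6 (66.9 ± 21.8), and neighbours of the same time overlapped. Adra1b rose at night by 1.51 ± 0.25 in controls (adjusted p = 8.99e-07), a 2.84-fold change of signal + 16, and by 1.64 ± 0.25 in cKO (adjusted p = 6.19e-08). The difference of these changes was 0.14 ± 0.35 (adjusted p = 0.921), and 0.01 ± 0.42 without the cKO ZT20 pools 2 and 3.

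Drd4, the Gi-coupled D4 receptor, also rose at night in both genotypes by its first probe set. The first probe set (1422830_s_at) read 34, 32.1 and 54.5 in control pineal glands at ZT6 and 98.7, 111.3 and 189.6 at ZT20. In cKO it read 46.9, 49.5 and 56.5 at ZT6 and 160.5, 146.5 and 128.9 at ZT20. Day and night pools did not overlap in either genotype, while the genotypes overlapped at each time. Drd4 rose at night by 1.38 ± 0.27 in controls (adjusted p = 5.89e-05) and by 1.27 ± 0.27 in cKO (adjusted p = 0.000259), and these differed by -0.12 ± 0.39 (adjusted p = 0.939). The suffix _s_at marks a set whose probes can match more than 1 transcript. The other set (1422829_at) read 18.6 to 53.4 by day and 35.1 to 61 by night in controls, with overlap, and gave 0.25 ± 0.29 (adjusted p = 0.739) in controls and 0.55 ± 0.29 (adjusted p = 0.321) in cKO. The pineal rise of Drd4 therefore rests on 1 of its 2 probe sets.

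Both genes entered the pineal test only through night arrays: Adra1b was above the array median on the 6 night arrays and Drd4 on 3 of them, so that their count under the filter was favoured by the rise itself. With no filter all 4 members were tested among 18193 genes. Adra1b (control 1.51 ± 0.23, adjusted p = 0.000236, cKO 1.64 ± 0.23, adjusted p = 0.000109) and Drd4 (1.38 ± 0.24, adjusted p = 0.00108, and 1.27 ± 0.24, adjusted p = 0.00237) then passed, where 2.57% of genes were higher at night in controls and 1.59% in cKO. Under the filter 5.3% of 11936 genes were higher in controls and 2.97% in cKO. Without the cKO ZT20 pools 2 and 3 the cKO changes were 1.52 ± 0.32 for Adra1b (adjusted p = 0.0114) and 1.40 ± 0.34 for Drd4 (adjusted p = 0.0203) with no filter, a combination added after seeing the data. Over the 4 members the median night change was 1.04 in controls and 0.84 in cKO, beside -0.000606 and -0.131 over all genes.

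Neither Drd1 nor Drd2 passed between day and night in the pineal gland. Drd1 read 60.5, 74.5 and 89.4 at ZT6 and 134.2, 99.9 and 162.9 at ZT20 in controls. In cKO Drd1 read 39.2, 66.9 and 109.9 at ZT6 and 89.1, 100.3 and 96.8 at ZT20. The control pools of Drd1 did not overlap between day and night and the cKO pools did. Neither change passed with no filter (0.70 ± 0.26 in controls, adjusted p = 0.16, and 0.42 ± 0.26 in cKO, adjusted p = 0.395). The other Drd1 set gave 0.59 ± 0.27 in controls (adjusted p = 0.289) and 0.50 ± 0.27 in cKO (adjusted p = 0.339). Drd2 read 5.4 to 36.5 throughout.

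The alpha-2C receptor gene Adra2c was the only other adrenergic receptor with a named probe set, and Drd3 the only other dopamine receptor. Adra2c (first of 4 probe sets) averaged 724.5 ± 107 at ZT6 and 1049 ± 157 at ZT20 in control pineal glands, and 749.9 ± 136 and 982.4 ± 216 in cKO. The control pools did not overlap (601.5 to 788.9 against 911.8 to 1221), but the change of 0.53 ± 0.19 did not pass as deposited (adjusted p = 0.0692), nor did that of 0.38 ± 0.19 in cKO (adjusted p = 0.199). They passed after median centring (adjusted p = 0.0212 and 0.0494) and on quantile-normalised values, at 0.50 ± 0.11 (adjusted p = 0.00388) and 0.51 ± 0.11 (adjusted p = 0.00409). Adra2c was lower in control retinas, by -2.20 ± 0.24 at ZT6 and -2.56 ± 0.24 at ZT20. Drd3 read at most 18.4 on any array.

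**Figure D2:**
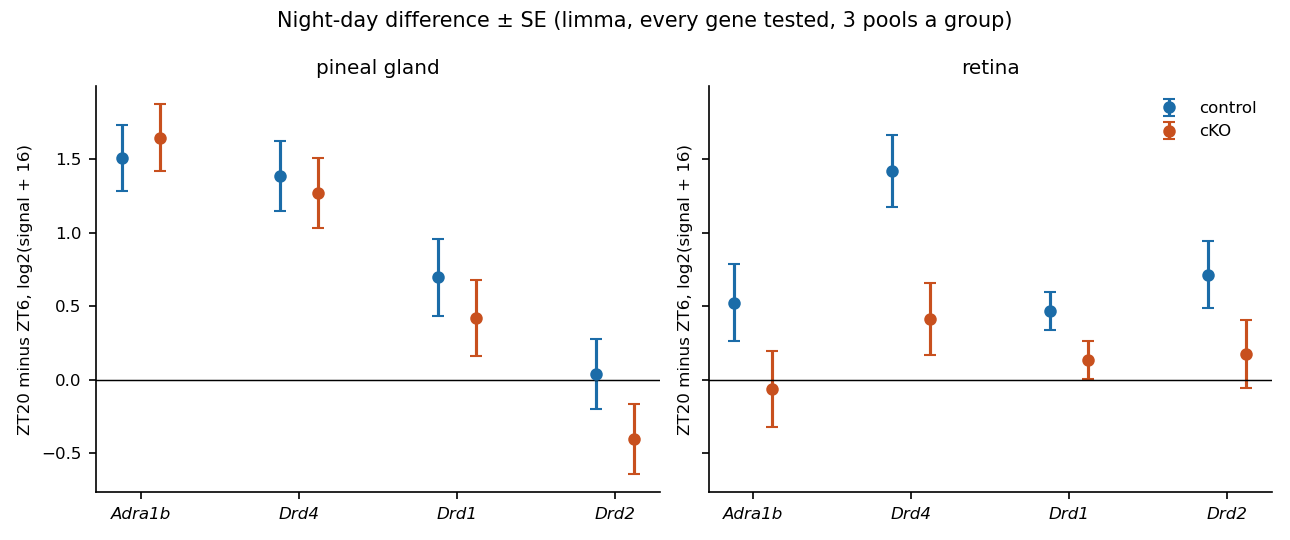
ZT20 minus ZT6 difference of log2(signal + 16) for the 4 genes in the pineal gland (left) and the retina (right), control in blue and cKO in orange, from the limma fit of every named gene with no filter; points are estimates and bars ± 1 SE. In the pineal gland the genotypes overlap for Adra1b and Drd4, and in the retina the control estimate of Drd4 (1.42) lies above that of cKO (0.41), a difference that did not pass.

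No member passed between genotypes in the pineal gland. For Adra1b the cKO minus control difference was 0.03 ± 0.25 at ZT6, 0.17 ± 0.25 at ZT20 and 0.10 ± 0.18 averaged. Without the cKO ZT20 pools 2 and 3 it was 0.05 ± 0.34 at ZT20 and 0.04 ± 0.21 averaged. For Drd4 it was 0.27 at ZT6 and 0.16 at ZT20. Over all genes 1.94% passed at ZT6, 1.02% at ZT20, 3.17% for the average over both times and 0.36% for the genotype difference of the night change. By limma 0 of the 2 members tested had an unadjusted p under 0.05 in any of these 4 comparisons. After each array was centred on its median, the averaged difference passed for Adra1b (0.36 ± 0.14, adjusted p = 0.0388) and Drd4 (0.48 ± 0.16, adjusted p = 0.0249). The median over all genes then stood at 0.203, against -0.0606 as deposited, and on quantile-normalised values neither passed (0.37, adjusted p = 0.17, and 0.49, adjusted p = 0.143).

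Drd4 was also higher at night in the control retina, where the gene is far brighter. The first set read 1425, 843 and 1096 at ZT6 and 2934, 2312 and 3802 at ZT20, with no overlap. The change was 1.42 ± 0.24 (adjusted p = 0.0225), a 2.67-fold change. Only 0.103% of 11693 genes were higher at night in control retinas. The other set read 383.1, 249.3 and 349.8 at ZT6 and 941.5, 771.7 and 935.4 at ZT20. It gave 1.40 ± 0.24 (adjusted p = 0.0528 among all probe sets with no filter, unlike the filtered fit of the first set). The call was lost with no filter (adjusted p = 0.0508) and when control pool 2 or 3 of ZT6 or pool 1 or 3 of ZT20 was left out (changes from 1.23 to 1.42, adjusted p from 0.0674 to 0.244). It held after median centring (1.36 ± 0.18, adjusted p = 0.00254) and on quantile-normalised values (1.29 ± 0.19, adjusted p = 0.00787).

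The night values of Drd2 and Drd1 also lay above the day values in control retinas. Drd2 read 843.9, 628.3 and 641.6 at ZT6 and 1344, 914.9 and 1257 at ZT20. Drd1 read 1542, 1322 and 1483 at ZT6 and 1883, 1851 and 2307 at ZT20. Neither gene overlapped between day and night, but neither passed, at 0.72 ± 0.23 for Drd2 (adjusted p = 0.252) and 0.47 ± 0.14 for Drd1 (adjusted p = 0.193). Drd2 passed after median centring (0.66 ± 0.14, adjusted p = 0.0475) and quantile normalisation (0.60 ± 0.13, adjusted p = 0.0467), and Drd1 passed under neither (adjusted p = 0.192 and 0.11). The other Drd1 set gave 0.50 ± 0.12. Over the 3 dopamine receptors the median change was 0.72, beside 0.0986 over all genes.

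In cKO retinas the day values of these receptors lay nearer to the night values. Drd4 read 1654, 2807 and 1948 at ZT6 and 2900, 2042 and 3634 at ZT20 in cKO. Drd2 read 699.8, 1247 and 896.6 at ZT6 and 1078, 818.3 and 1288 at ZT20. Drd1 read 2227, 2514 and 2415 at ZT6 and 2954, 2572 and 2354 at ZT20. For each of the 3 genes the day and night pools of cKO overlapped. The changes were 0.41 ± 0.24 for Drd4, 0.18 ± 0.23 for Drd2 and 0.13 ± 0.14 for Drd1, with adjusted p = 1 each, where 0.0513% of genes passed in either direction. By limma 0 of these 3 had an unadjusted p under 0.05. Without the cKO ZT20 pools 2 and 3 the changes were 0.47 ± 0.30, 0.22 ± 0.31 and 0.31 ± 0.21. By mean, Drd4 was ordered control ZT20 (3016 ± 748), cKO ZT20 (2858 ± 797), cKO ZT6 (2136 ± 599) and control ZT6 (1121 ± 292), and the first 3 overlapped.

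The genotype difference of the night change was tested directly and did not pass. It was -1.003 ± 0.34 for Drd4 (unadjusted p = 0.00894, adjusted p = 0.797), -0.54 ± 0.32 for Drd2 and -0.33 ± 0.19 for Drd1. All 3 had the same sign, but the genes share their arrays, and 0% of 11693 genes passed, with 699 at an unadjusted p under 0.05. The other sets gave -1.03 ± 0.34 for Drd4 and -0.42 ± 0.17 for Drd1. Without the cKO ZT20 pools 2 and 3 the difference was -0.94 ± 0.36 for Drd4, -0.49 ± 0.38 for Drd2 and -0.16 ± 0.26 for Drd1.

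By day, Drd1 and Drd4 were higher in cKO retinas than in control retinas. For both genes the 3 cKO pools at ZT6 lay above the 3 control pools, while for Drd2 they overlapped. Drd1 rose by 0.71 ± 0.14 (adjusted p = 0.00164) and Drd4 by 0.92 ± 0.24 (adjusted p = 0.0128), and Drd2 gave 0.39 ± 0.23 (adjusted p = 0.201). The other sets gave 0.58 ± 0.12 for Drd1 (adjusted p = 0.00753) and 1.06 ± 0.24 for Drd4 (adjusted p = 0.0106). These 2 of 3 members stand beside 23.3% of all genes that were higher, and the median of all genes was itself shifted by 0.29. After median centring Drd4 was 0.61 ± 0.18 higher (adjusted p = 0.0343) and Drd1 0.40 ± 0.14 (adjusted p = 0.0697). On quantile-normalised values Drd4 was 0.63 ± 0.19 higher (adjusted p = 0.0368) and Drd1 0.43 ± 0.11 (adjusted p = 0.0139). Drd4 did not pass without control ZT6 pool 2 (0.73, adjusted p = 0.08) or without cKO ZT6 pool 2 (0.70, adjusted p = 0.0933). With no filter 13.3% of genes were higher at ZT6, and the dim Adra1b set gave 0.84 ± 0.26 (adjusted p = 0.0432) from signals of 4.1 to 22 in controls and 27.1 to 47 in cKO, all below the array median.

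At night the dopamine receptors gave no call between genotypes in the retina. Drd1 was 0.38 ± 0.14 higher (adjusted p = 0.112), Drd4 differed by -0.09 ± 0.24 and Drd2 by -0.15 ± 0.23. Among all genes 6.51% passed at ZT20. By limma 1 of the 3 members, Drd1, had an unadjusted p under 0.05. Without the cKO ZT20 pools 2 and 3 the differences were 0.56 ± 0.21 for Drd1 (adjusted p = 0.153), -0.03 ± 0.30 for Drd4 and -0.10 ± 0.31 for Drd2. Averaged over both times, Drd1 rose by 0.55 ± 0.10 (adjusted p = 0.000479), where 27.9% of genes were higher and the all-gene median was 0.203. It passed also after median centring (0.29 ± 0.10, adjusted p = 0.0449), on quantile-normalised values (0.35 ± 0.07, adjusted p = 0.00367), by its other probe set (0.37 ± 0.09, adjusted p = 0.00845) and without those pools (0.64 ± 0.13, adjusted p = 0.00111). Averaged, Drd4 gave 0.42 ± 0.17 (adjusted p = 0.0732) and Drd2 0.12 ± 0.16, and 0.44 ± 0.18 and 0.15 ± 0.19 without those pools. Drd4 passed by its other set (0.54 ± 0.17, adjusted p = 0.036) and without control ZT6 pool 1, control ZT20 pool 3, cKO ZT6 pool 1 or cKO ZT20 pool 2 (0.50 to 0.53, adjusted p from 0.0157 to 0.0458), but not after median centring (0.16, adjusted p = 0.389) or quantile normalisation.

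**Figure D3:**
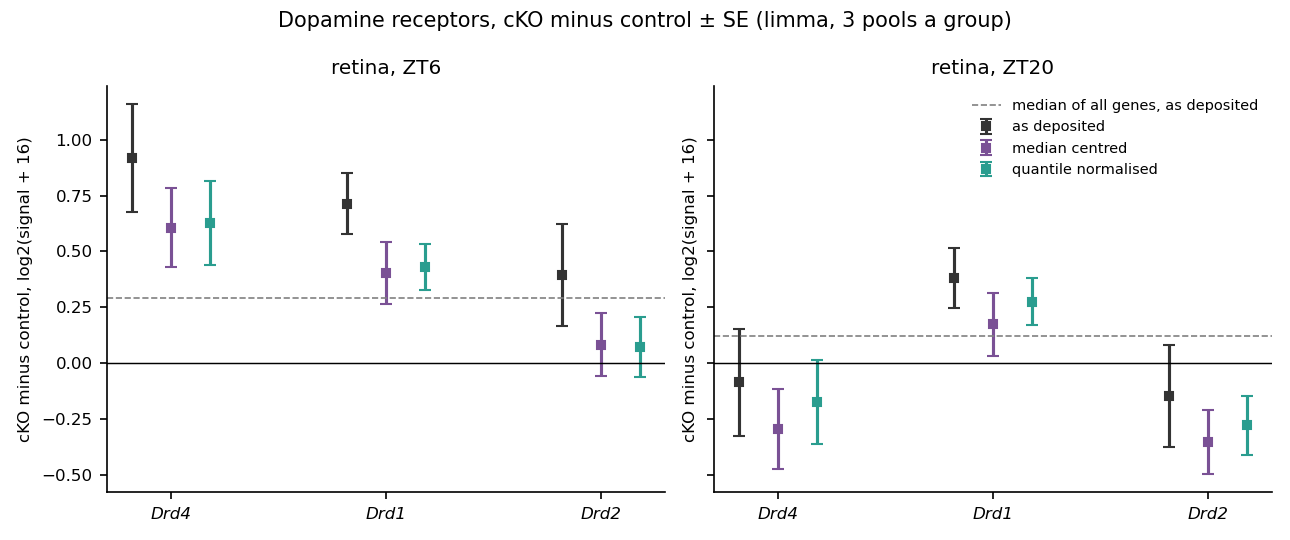
cKO minus control difference of log2(signal + 16) for the dopamine receptors in the retina at ZT6 (left) and ZT20 (right), as deposited (black), after median centring (purple) and after quantile normalisation (green); squares are limma estimates, bars ± 1 SE and the dashed line the median of all genes as deposited. At ZT6 the deposited estimates of Drd4 (0.92) and Drd1 (0.71) are above the dashed line at 0.29, and Drd2 falls close to 0 after either scaling.

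**Figure D4:**
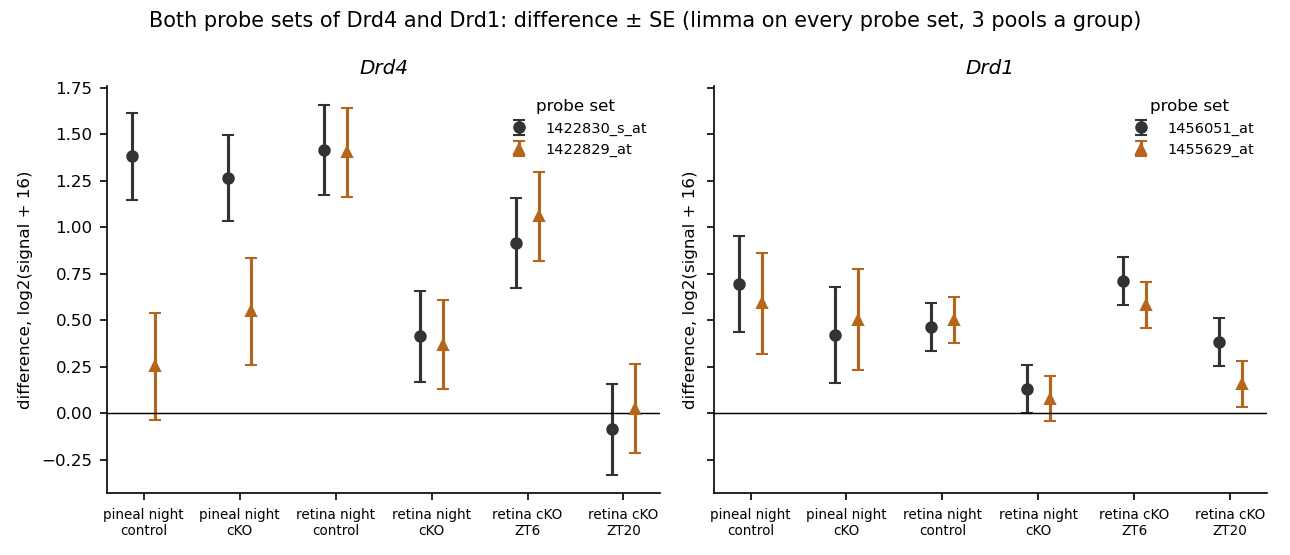
Both probe sets of Drd4 (left) and Drd1 (right) in 6 comparisons, as differences of log2(signal + 16) with bars of ± 1 SE, from a limma fit of every probe set. The sets of Drd4 part in the pineal gland (1.38 and 0.25 in controls) and lie together in the retina (1.42 and 1.40), and the bars of both Drd1 sets overlap in each comparison.

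Across the tissues, differences in these changes were tested in a fit of all 24 arrays. The retina minus pineal difference of the control night change was -0.98 ± 0.36 for Adra1b (adjusted p = 0.294) and 0.03 ± 0.36 for Drd4, where 1.06% of genes passed. By limma 0 of 4 members passed and 1, Adra1b, had an unadjusted p under 0.05. The averaged cKO change of Drd1 was 0.80 ± 0.22 greater in the retina than in the pineal gland (adjusted p = 0.0095), where 20.5% of genes passed as greater. It did not pass after median centring (0.28 ± 0.23), quantile normalisation (0.33 ± 0.22) or scaling to a trimmed mean (0.55 ± 0.21), nor by the other set (0.40 ± 0.23). It was 0.93 ± 0.28 when the cKO ZT20 pools 2 and 3 were left out (adjusted p = 0.0167).

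Marker genes of several retinal cells moved with genotype by day, beside the rise of Drd1 and Drd4. Among all genes 23.3% were higher and 1.14% lower in cKO retinas at ZT6 as deposited, and 9.77% and 7.14% on quantile-normalised values. The summed signal of the 6 amacrine markers was 15712 to 19423 in control retinas at ZT6 and 20687 to 24567 in cKO, and 4 of the 5 tested were higher (1 on quantile-normalised values). That of the 6 markers of Mueller glia and astrocytes was 27582 to 32274 against 38664 to 44632, with 5 of 6 higher (4 on quantile-normalised values), and that of the 7 microglial markers 1017 to 1341 against 3182 to 5267, with 5 of 5 tested higher. The 5 cone markers summed to 18171 to 21775 in controls and 14732 to 17184 in cKO, and 1 of them was higher and 2 were lower. After quantile normalisation 1 cone marker was higher and 4 were lower. Sums of the 4 rod markers (34311 to 39050 against 32594 to 38586) and 3 horizontal cell markers (4582 to 5805 against 4832 to 6158) overlapped, with 0 of 4 rod markers and 1 of 2 tested horizontal cell markers higher. The 4 bipolar cell markers summed to 8420 to 9528 in controls and 9417 to 11483 in cKO, with 1 of 4 higher. After quantile normalisation 0 horizontal cell markers were higher, and 0 bipolar cell markers were higher and 1 lower. The 5 ganglion cell markers summed to 9739 to 11893 in controls and 11504 to 14992 in cKO, with overlap. For the 3 genes of dopaminergic amacrine cells, Th, Slc6a3 and Slc18a2, the sums were 452.3 to 537.7 against 560.7 to 710.1, and 0 of 1 tested passed as deposited or on quantile-normalised values. No marker was at 0 on all arrays, and the part of these cells in the receptor changes was not tested. Between day and night in control retinas, rod sums (34311 to 39050 and 37024 to 42486) and amacrine sums (15712 to 19423 and 17888 to 19095) overlapped. In the pineal gland the 7 pinealocyte markers summed to 45051 to 48107 in controls at ZT6 and 49947 to 53837 at ZT20. Aanat is 1 of these markers and averaged 567 ± 164 at ZT6 and 4622 ± 1030 at ZT20, so the night sums include its rise. The 4 rod markers summed to 4436 to 9364 at ZT6 and 3297 to 3744 at ZT20. The third ZT6 pools held the highest pineal signal of the rod gene Gnat1 in each genotype (3830 in controls and 2234 in cKO). Without these pools the control night changes were 1.71 ± 0.29 for Adra1b and 1.56 ± 0.31 for Drd4. Gnat1 also read 1266 in control ZT6 pool 2 and 171.5 to 957.5 in controls at ZT20. Rod gene signal thus remained on both sides of that comparison. The log2 ratio of 3' to 5' Actb control probe sets, a measure of RNA quality, was 1.34 to 1.5 in cKO pineal glands at ZT20 and 1.07 to 1.3 in the other pineal groups. In the retina it was 1.22 to 1.5 in controls at ZT6, 1.48 to 1.79 in controls at ZT20 and 1.11 to 1.23 in cKO at ZT6, and its part in the receptor changes was not tested.

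Downstream of the receptors, cyclic AMP-responsive genes were higher by night in the pineal gland of both genotypes. Of 10 tested genes listed as cyclic AMP-responsive night genes, 10 rose in controls and 9 in cKO. The list median was 1.2 in each, beside 0.0249 and -0.151 over all genes, of which 5.3% were higher in controls and 2.97% in cKO. These genes were listed as night genes with earlier results of these data known, so the choice of list favoured these counts. In cKO 9 of the 10 rose also without ZT20 pools 2 and 3. Aanat rose by 3.01 ± 0.18 in controls (adjusted p = 5.14e-33) and by 2.74 ± 0.18 in cKO (adjusted p = 6.02e-29), or by 2.50 ± 0.25 without those pools. The orphan nuclear receptor gene Nr4a1 rose by 1.40 ± 0.22 and 1.797 ± 0.22, or 1.57 ± 0.31 in cKO without them. In control retinas 0 of 9 rose (1 on quantile-normalised values) and 1 fell at night, the deiodinase gene Dio2, by 1.09 on the log2 scale (-1.09 ± 0.14, adjusted p = 0.00189). Only 0.103% of all genes passed there as higher at night and 0.0342% as lower, and 0.701% as higher on quantile-normalised values. Nr4a1 did not pass as deposited, but its control retinal pools did not overlap (248 to 261 at ZT6, 459 to 766 at ZT20). Its cKO retinal pools did not overlap either (181 to 296 and 442 to 854).

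Among the transducers, 2 of 9 G protein alpha subunits rose at night in each genotype of the pineal gland, where 5.3% of all genes were higher and 3.23% lower in controls and 2.97% and 8.53% in cKO. Gna14, a Gq-family subunit of the kind that alpha-1 receptors use, rose by 1.47 ± 0.24 (adjusted p = 6.91e-07) in controls and by 1.77 ± 0.24 (adjusted p = 1.65e-09) in cKO. In cKO at ZT20 its pools 1, 2 and 3 read 193.3, 472.4 and 423.6, and without pools 2 and 3 its night change was 1.00 ± 0.33 (adjusted p = 0.0213). Gnaz, a Gi-family subunit of the kind that D2-like receptors use, rose by 1.01 ± 0.18 and 0.67 ± 0.18, or 0.69 ± 0.23 in cKO without those pools. Of 8 adenylyl cyclases 0 rose and 1 fell, the calcium-stimulated Adcy1, which averaged 286 ± 36.5 at ZT6 and 121 ± 33 at ZT20 in controls and 373 ± 184 and 79.9 ± 19.3 in cKO. Its night change was -1.17 ± 0.24 in controls (adjusted p = 0.00014) and -1.94 ± 0.24 in cKO (adjusted p = 3.59e-11), or -2.17 ± 0.33 without those pools, when 3 of the 8 cyclases fell. The protein kinase A subunit gene Prkar2b rose in both genotypes (0.44 ± 0.09 and 0.28 ± 0.09), as 1 of 6 subunits, but did not pass in cKO without those pools (0.21 ± 0.11, adjusted p = 0.12). Of 5 phospholipase C beta and protein kinase C genes only Plcb4 rose, in controls (0.39 ± 0.11), and 0 of 6 receptor kinases and arrestins passed in either genotype. On quantile-normalised values in controls, 4 alpha subunits, 3 cyclases, 3 protein kinase A subunits and 2 receptor kinases and arrestins were higher at night. Of all genes 12.4% were then higher and 13.5% lower. The fall of Adcy1 passed on these values too, at -1.19 in controls (adjusted p = 0.00511) and -1.805 in cKO (adjusted p = 0.000365).

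Of 6 tested genes of catecholamine synthesis, transport and breakdown, Maob, which breaks down monoamines, rose at night in control pineal glands (0.60 ± 0.18, adjusted p = 0.0161). Of all genes 5.3% were higher and 3.23% lower at night in controls, and 2.97% and 8.53% in cKO. In cKO Maob did not pass at night, with means of 1777 ± 203 at ZT6 and 1667 ± 275 at ZT20. At ZT6 it was 0.69 ± 0.18 higher in cKO than in controls (adjusted p = 0.0115), where 1.94% of genes passed. On quantile-normalised values this difference was 0.67 (adjusted p = 0.0159). Gch1, which makes the cofactor of tyrosine hydroxylase, fell at night in controls (-0.36 ± 0.10, adjusted p = 0.013) and in cKO (-0.55 ± 0.10, adjusted p = 1.66e-05, or -0.76 ± 0.12 without the cKO ZT20 pools 2 and 3).

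In the cKO retina the noradrenaline transporter gene Slc6a2 and Gna14 were higher at both times. Slc6a2 read 73.6, 98.5 and 87.2 in control retinas at ZT6 and 940.1, 1257 and 1143 in cKO. At ZT20 it read 46.8, 68.7 and 36.8 in controls and 1176, 850.8 and 1090 in cKO. Control and cKO pools did not overlap. Of the cKO pools with residual Neurod1 signal at ZT20, pool 2 was the lowest of the 6 cKO pools and pool 3 lay within the range of the others. Slc6a2 rose by 3.46 ± 0.23 at ZT6 (adjusted p = 1.13e-07) and by 3.997 ± 0.23 at ZT20 (adjusted p = 2.2e-08), and by 3.16 and 3.82 on quantile-normalised values. Without pools 2 and 3 its ZT20 change was 4.19 ± 0.35 (adjusted p = 1.41e-07). Its 3 other probe sets were dim, at 1.2 to 104.4 over all arrays. In the pineal gland Slc6a2 read 15.3 to 50.2. Gna14 averaged 226 ± 56.5 in control retinas at ZT6 and 963 ± 210 in cKO, and rose by 2.02 ± 0.22 at ZT6 (adjusted p = 1.33e-05) and by 2.03 ± 0.22 at ZT20 (adjusted p = 1.84e-05), or by 2.25 ± 0.33 without those pools. Maoa, which breaks down monoamines, rose at ZT6 (0.62 ± 0.20, adjusted p = 0.036) but not on quantile-normalised values (0.29, adjusted p = 0.173), which made 2 of 5 catecholamine genes as deposited and 1 after that scaling. At ZT20 Slc6a2 alone of these 5 passed.

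Adcy6, a cyclase that Gi inhibits, was the only 1 of 8 tested cyclases that fell in cKO retinas at ZT6, and 4 others rose, among them Adcy9 (0.75 ± 0.18, adjusted p = 0.00874). Adcy6 read 1820, 1543 and 1259 in controls and 612.4, 980.6 and 697.4 in cKO at ZT6, without overlap, and its change was -1.01 ± 0.21 (adjusted p = 0.00319). At ZT20 it was -1.02 ± 0.21 (adjusted p = 0.00589), or -1.32 ± 0.28 without the cKO pools 2 and 3, and 0 other cyclases passed. As deposited, 6 of 10 G protein alpha subunits, 4 of 6 protein kinase A subunits, 3 of 5 phospholipase C and protein kinase C genes and 2 of 6 receptor kinases and arrestins were higher at ZT6, beside 23.3% of all genes. On quantile-normalised values these were 4, 1, 2 and 0, beside 9.77% of all genes, so that much of this count moved with the scaling. Of the listed cyclic AMP-responsive genes, only Fosl2 and Nr4a2 passed at ZT6. They were higher in cKO, by 0.92 ± 0.19 (adjusted p = 0.00319) and 0.45 ± 0.16 (adjusted p = 0.0464). On quantile-normalised values Fosl2 still passed (adjusted p = 0.0318) but not Nr4a2. At ZT20 the largest called changes were of Fosl2 (1.45 ± 0.19), Pde10a (0.92 ± 0.24) and Crem (0.75 ± 0.19), all higher. Without pools 2 and 3 they were 1.69, 1.08 and 0.97. As deposited, 5.49% of all genes were higher at ZT20.

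**Figure D5:**
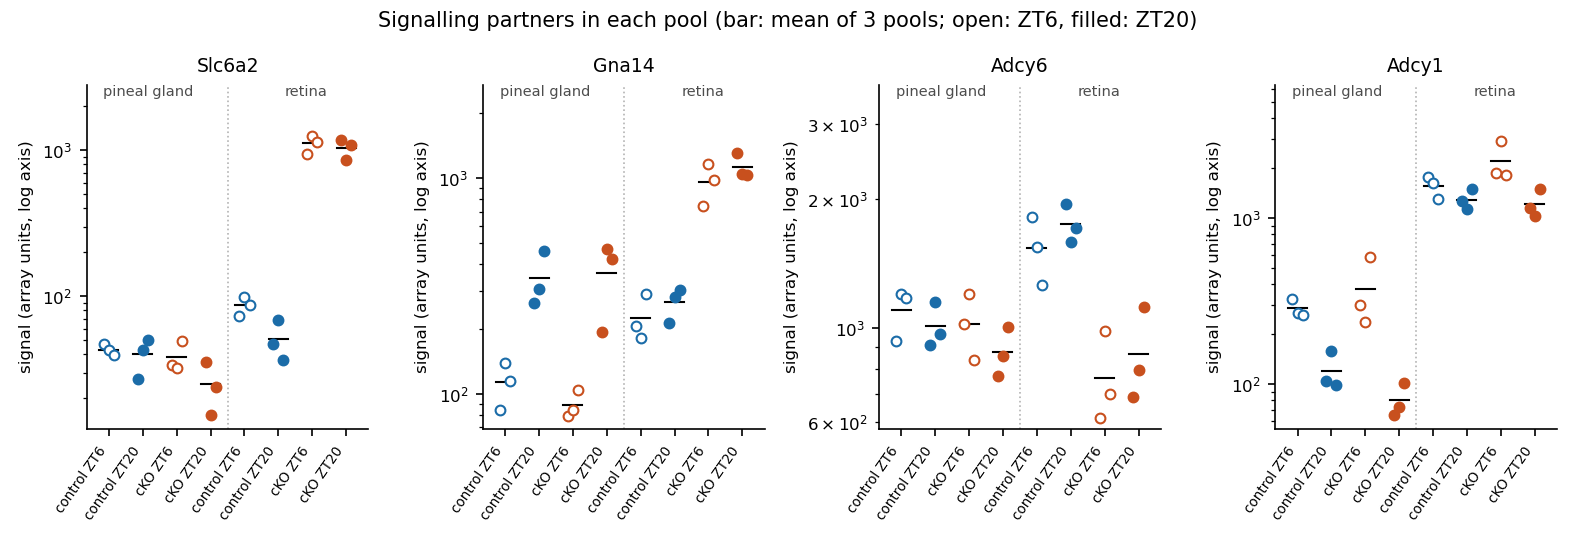
Signal of Slc6a2, Gna14, Adcy6 and Adcy1 (log axes, array units) in every pool of the 8 groups, control in blue and cKO in orange, open points for ZT6, filled points for ZT20 and bars at the mean of 3 pools. The cKO retinal pools of Slc6a2 (850.8 to 1257) lie above all other pools (98.5 at most), and Adcy1 lies lower at night in the pineal gland of both genotypes. The cKO retinal pools of Adcy1 also lie lower at night (1028 to 1502 against 1834 to 2936), whereas its control retinal pools overlap. Neither retinal night change of Adcy1 passed.

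The genes most like each member over the 8 group means were ranked by Pearson's r among 12881 genes, as a description over 8 points that share tissue and time. For Adra1b they were Tbx21 (r = 0.993), Rab42, Neurl1a and Fut4, of which Tbx21 and Rab42 were also among the closest 4 on quantile-normalised values. Tbx21 averaged 74.7 ± 9.09 and 224 ± 85.5 in control pineal glands at ZT6 and ZT20 and 32.1 ± 12.4 and 43 ± 2.51 in control retinas. For Drd4 the list was Gadd45a (r = 0.999), Plekha8, Sbk1 and Rtn2, with Sbk1 shared between scalings. For Drd1 it was Tmod2 (r = 0.999), the serotonin receptor gene Htr1b, Aldoc and Tmem163, with Aldoc shared, and for Drd2 Khdrbs3 (r = 0.999), Rnf150, Gpsm2 and Map6, with Gpsm2 shared. The r of the dopamine receptors rests on the gap between tissues, which any gene with a like gap shares.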

How the data were processed

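RNA of pools of pineal glands or retinas was amplified (NuGEN Ovation V2, FL-Ovation) and hybridised to Affymetrix Mouse 430 2.0 arrays, per the labels' protocols. Each probe set has 1 linear intensity per array in the deposited table. The submitters' processing notes name GCOS; scaling and detection calls are not given in the sources used here. Groups came from the sample titles. Of 45101 probe sets, 34945 had 1 gene symbol, 932 several and 9160 none in the table used, besides control sets. Of 276 pairs of arrays, none shared more than 0.494% of its values. The number of arrays limits the precision.

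A gene was represented by its probe set of highest mean, avoiding _x_at sets. Adjusted p-values printed for the other probe sets of members come from a limma fit of every probe set with no filter. Genes above the array median on at least 3 arrays were fitted as log2(value + 16) with limma 3.58.1 in R 4.3.3 (lmFit, eBayes with a variance trend): 11936 pineal genes, 11693 retinal genes and 12881 genes over both tissues. P-values are two-sided, adjusted by Benjamini-Hochberg over all genes tested, for 16 comparisons. The prior degrees of freedom were 154, 9.12 and 12.9, so that the pineal fit draws each gene's spread close to the common trend. With 3 pools against 3 an exact permutation test cannot go below 0.1. The procedure was tested on simulated data. Other scalings, pseudocounts, filters, probe sets and pools were tried. Slide and scan date were not used here.

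Pool numbers in the labels are not said to be shared. Deviations of same-numbered pools correlated above 0.1 in every pair only between genotypes in the pineal gland at ZT6 (0.186, 0.349 and 0.322).

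The members and all gene lists were chosen with earlier results of these data known. Named by rule were the members, other receptors of the family, Neurod1, up to 3 passing genes of each pathway list with the largest changes, and the 4 genes most like each member in their group means. Some pathway genes so named are not printed.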

Additional observations from a re-analysis of the deposited data

Results flagged for a closer look

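The pineal night change of Neurod1 differed between genotypes by 3.27 ± 0.48 on the log2 scale (adjusted p = 1.58e-06, limma). It stands out because the test of the difference itself passed as deposited. The size was alike but the SE larger in the other fits, and none of these passed: 3.27 ± 1.11 with no filter (adjusted p = 0.855), 3.35 ± 1.12 after median centring (adjusted p = 0.515) and 3.29 ± 1.27 on quantile-normalised values (adjusted p = 0.433). The cKO pools read 29.1 to 83.5 at ZT6 and 22.5, 1897 and 960 at ZT20, and the control pools 4647 to 5268 and 3156 to 4323. Among the cKO pools at ZT20, pools 2 and 3 were the high ones.

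The averaged cKO change of Drd1 was 0.80 ± 0.22 greater in the retina than in the pineal gland (adjusted p = 0.0095, limma). It stands out because the difference between tissues was itself tested and passed as deposited. After median centring it was 0.28 ± 0.23 (adjusted p = 0.327) and on quantile-normalised values 0.33 ± 0.22 (adjusted p = 0.342).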

How the results depend on the processing

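The number of members that passed was recomputed under each alternative. In the pineal gland 2 passed at night in controls and in cKO, and 1 of them under the stricter filter or with the fit limited to the groups compared, since Drd4 was then no longer tested. The same held in cKO without ZT20 pools 2 and 3, and the range over single pools left out was 1 to 2 in each genotype. With no filter, an alternative added after seeing the data, Adra1b and Drd4 passed whichever single pool was left out, with changes of 1.35 to 1.71 and 1.13 to 1.56 in controls and of 1.54 to 1.76 and 1.20 to 1.34 in cKO. For the pineal genotype average the count went from 0 to 2 after median centring. In the retina the night count in controls was 1, 2 after median centring and quantile normalisation, and 0 with no filter, without the variance trend (adjusted p = 0.117 for Drd4), and in a range of 0 to 1 without single pools. The ZT6 genotype count of 2 was 1 after median centring and 1 to 2 without single pools. The averaged genotype count of 1 was 2 with no filter, and 1 to 2 without single pools. For the tissue difference of the night change the count went from 0 to 1 with a pseudocount of 64 (Adra1b, -0.90, adjusted p = 0.0218). For that of the averaged cKO change it went from 1 to 0 under median centring, quantile normalisation and trimmed-mean scaling. Where no construction is named, the cause was not tested. No called change reversed its sign under the alternatives run.

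With the pool number as a replicate block the Adra1b night change in control pineal glands kept its value of 1.51 (adjusted p = 4.71e-06), and the block changed no count of members. Of 32 mean levels of members in groups, 5 moved by more than 1 SD under quantile normalisation, by at most 0.22 on the log2 scale.

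Signals far below the array median limit what can be said of Adra1b in the retina and of Drd2 in the pineal gland. In the pineal gland Drd4 and Drd1 were above it on 3 and 2 of 12 arrays. The values of signalling partners without the cKO ZT20 pools 2 and 3 were added after seeing the data.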
